A study of Homo sapiens with 27 samples.

Results

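GAS5, ZFAS1, SNHG1, SNHG3, SNHG5, SNHG6, SNHG7, SNHG8, SNHG12 and SNHG15 are long noncoding RNAs that carry small nucleolar RNAs (snoRNAs) in their introns. They were chosen by name, with no threshold on a measured value, and are 10 of the 27115 genes listed for each library. RNA was sequenced from Karpas422, OCI-Ly1 and HBL1, 3 established cell lines of diffuse large B-cell lymphoma (DLBCL), 8 days after infection with a lentivirus that expressed a short hairpin RNA (shRNA). The shRNA was a scramble control (shCTRL) or targeted SIRT3, a mitochondrial NAD-dependent deacetylase, at 1 of 2 sites (shSIRT3-1 and shSIRT3-2). All 9 groups, the controls included, carried the pLKO.1 vector with its puromycin resistance and YFP genes, and each group had 3 replicate libraries, 27 in all. Each DLBCL subtype was represented by a single line, OXPHOS by Karpas422, germinal centre B-cell-like by OCI-Ly1 and activated B-cell-like by HBL1, so that line and subtype cannot be told apart. The paper grew OCI-Ly1 in Iscove's medium and the other lines in RPMI with added glutamine and HEPES. A difference of OCI-Ly1 from both other lines therefore cannot be told apart from one of medium. The labels do not say whether replicates were separate infections, so p-values measure the spread between these libraries, which may be technical. In bulk RNA of this kind, fewer cells of a type and less RNA per cell cannot be told apart.

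A snoRNA host gene is transcribed and spliced like other genes, and its introns are debranched and trimmed to snoRNAs. Box C/D snoRNAs guide ribose methylation of ribosomal RNA and box H/ACA snoRNAs guide its pseudouridylation, each with 4 core proteins. The spliced exons of many hosts hold no long reading frame, are read by ribosomes all the same and are then degraded by nonsense-mediated decay (NMD), the pathway that removes transcripts with early stop codons. Many hosts also begin with a terminal oligopyrimidine (TOP) tract, a C followed by an unbroken run of pyrimidines, which ribosomal protein mRNAs share and through which mTOR regulates their translation. GAS5 was named for its accumulation in growth-arrested cells, where slow translation spares it from NMD. The level of spliced host RNA and the yield of its snoRNAs therefore need not move together.

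The start of each transcript is printed because TOP tracts distinguish hosts from most other genes. A promoter from the RefSeq table (GRCh38.p14) was used for 8 of the 10 hosts. All 8 windows were found again in hg19, the build used for the files. SNHG6 and SNHG15 were left out, which does not mean that they lack a promoter in RefSeq. The counts of runs and motifs below cover only the 8 hosts with a window. Each line gives 5 bases before the RefSeq start and 25 bases from it, 5′ to 3′ on the transcribed strand. Capitals mark the unbroken pyrimidine run that begins with a C at the start.
GAS5, chr1:173838159-173838188, minus strand: aattcagatgtgtttattttggagcctaca
ZFAS1, chr20:47895174-47895203, plus strand: tcgttCTTTCgcgtctgcggtgcccggagt
SNHG1, chr11:62623333-62623362, minus strand: tcgttCTCatttttctactgctcgtggtaa
SNHG3, chr1:28832450-28832479, plus strand: tttctgattctctaactgcgcatgcttctg
SNHG5, chr6:86388427-86388456, minus strand: tcggtCTTTTacgtcggccttcgcgagcgt
SNHG7, chr9:139622612-139622641, minus strand: tcgtcCTCTgcgtgcgccggaggctgccgt
SNHG8, chr4:119199912-119199941, plus strand: cctttCacattcgggaagcgtcgggattag
SNHG12, chr1:28908361-28908390, minus strand: agcgcCCTTTCTCCCCgccgcattcccggt

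ZFAS1, SNHG5, SNHG7 and SNHG12 had a run of at least 4 bases, 4 of the 8 hosts (50%), against 5.45% of the 35116 promoters in the table and 61.5% of 78 ribosomal protein genes. The run was 3 bases in SNHG1, 1 base in SNHG8 and 0 in GAS5 and SNHG3, as counted from the RefSeq start. That start can differ from the one used in these cells, and from the GENCODE start used for the intervals and distances below. The GAS5 and SNHG3 windows lie outside their GENCODE intervals. The SNHG12 window ends at 28908390, against a GENCODE start at 28909644. In promoters of 250 bases before to 50 after the start, CACGTG (an E-box) occurred on either strand in SNHG7 alone of the 8, and in 7.26% of all promoters. TGATGNAA, the core of the amino acid response element that ATF4 binds, occurred in 0 of 8 and in 3.62% of all. TGACGTCA, the cyclic AMP response element, occurred in 0 of 8 and in 1.85% of all.

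In hg19 (GENCODE v44lift37) the hosts lie on 8 chromosomes. Distances are between GENCODE starts, which for some hosts are not the RefSeq starts printed above. GAS5 spans chr1:173827697-173838020 on the minus strand, and its start is 800 bases from that of ZBTB37 on the opposite strand. ZFAS1 (chr20:47894715-47916137, plus) starts 248 bases from ZNFX1, again on the opposite strand. SNHG1 (chr11:62619450-62623425, minus) and SLC3A2, which encodes the heavy chain of the cystine and large neutral amino acid transporters, start 51 bases apart on opposite strands. SNHG3 (chr1:28832492-28837404, plus) starts 37 bases from RCC1, a chromatin-bound exchange factor for the GTPase Ran, on the same strand. The other intervals are chr6:86360209-86388650 (SNHG5, minus), chr8:67832796-67838633 (SNHG6, minus), chr9:139615818-139622636 (SNHG7, minus), chr4:119199858-119206471 (SNHG8, plus), chr1:28905050-28909644 (SNHG12, minus) and chr7:45022618-45026560 (SNHG15, minus). Among the coding genes that overlap hosts are RCC1 (SNHG3), MCMDC2 (SNHG6), DIPK1B (SNHG7), PRSS12 (SNHG8) and TRNAU1AP (SNHG12). The library kit did not mark strand, so reads in overlapping exons cannot be assigned to one gene of such a pair.

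Levels are given as CPM, reads scaled to the same sequencing total in each library, which are not divided by gene length and are therefore compared between libraries and not between genes. Libraries held 28694398 to 53405456 reads on genes. SIRT3 lay at 9.14 to 16.4 CPM in the shCTRL libraries, at 1.06 to 2.79 CPM with shSIRT3-1 and at 2.84 to 6.24 CPM with shSIRT3-2, without overlap. Its log2 fold change was -2.45 ± 0.17 (adjusted p = 3.81e-10) and -1.37 ± 0.17 (adjusted p = 2.21e-06), the error here and below being the standard error of the fit. All 6 B-cell markers were present in every library, CD22 with the lowest value at 4.55 CPM, whereas the T-cell, myeloid, epithelial and endothelial markers had medians of 0 to 1.84 CPM. The 6 B-cell markers summed to 945 to 1484 CPM in Karpas422 shSIRT3-2 and 1633 to 2363 CPM in its controls, and to 1495 to 1572 and 1779 to 2194 CPM in the same groups of HBL1. The 8 other-cell markers summed to 7.23 to 7.44 CPM in HBL1 shSIRT3-2 and 12.7 to 25.5 CPM in its controls, and the part of either list in the results was not tested. A change was called at a fold of over 1.5 and a Benjamini-Hochberg adjusted p under 0.05 over all genes tested with limma. The median gene was shifted by -0.11 in HBL1 with shSIRT3-1 and by 0.04 after quantile normalization, and the median of the 10 hosts went from -0.11 to 0.02 with it. With that normalization the share of calls that were lower went from 68.1% to 48.4% in the same comparison, and from 69.9% to 54.6% with shSIRT3-1 over the 3 lines.

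Libraries that stood apart in the hosts themselves were HBL1 shSIRT3-1 replicate 3, Karpas422 shSIRT3-2 replicate 3 and OCI-Ly1 shCTRL replicate 2. The 10 hosts summed to 527.7 CPM in the HBL1 library against 766.0 and 806.8 CPM in the other replicates, and each of the 10 was lowest there. They summed to 242.8 CPM in the Karpas422 library against 305.6 and 293.3 CPM. In OCI-Ly1 shCTRL replicate 2, 8 genes of the integrated stress response (ASNS, CHAC1, TRIB3, DDIT3, ATF3, PSAT1, SESN2 and ATF4) summed to 1294 CPM against 301 and 333 CPM in the other OCI-Ly1 controls. The replicate 3 libraries of different groups deviated alike from their group means over the genes tested. Their correlations were 0.44 to 0.50 in HBL1 and 0.25 to 0.49 in Karpas422. Omission of a single library leaves the same-numbered libraries of the other groups in the fit. The values without these libraries are given beside the results that they move, and are not corrected for a shared replicate number.

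The hosts were expressed at different levels in the controls of the 3 lines. In the shCTRL libraries 9 of 10 hosts, all but SNHG7, were called in at least 1 pair of lines, where 77% of the 12607 genes tested were. SNHG5 had the widest range of the 10. It lay at 106, 121 and 129.8 CPM in Karpas422, 6.97, 8.27 and 7.93 CPM in OCI-Ly1 and 214, 232 and 280.0 CPM in HBL1, with no overlap between any lines. The log2 difference between HBL1 and OCI-Ly1 was 4.95 ± 0.13 (adjusted p = 3.06e-10), and that between HBL1 and Karpas422 was 1.02 ± 0.13 (adjusted p = 4.29e-05). SNHG5 was first described at a translocation with BCL6 in a B-cell lymphoma.

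HBL1 also had the highest control levels of GAS5, ZFAS1, SNHG1, SNHG3, SNHG8 and SNHG12. SNHG1 averaged 258 ± 40.6 CPM (SD, n = 3) in HBL1, 82.3 ± 35.1 CPM in OCI-Ly1 and 63.8 ± 12.4 CPM in Karpas422. SNHG8 averaged 88.5 ± 8.75, 23.5 ± 6.16 and 19.5 ± 4.91 CPM in the same order, and HBL1 exceeded Karpas422 by 2.20 ± 0.22 on the log2 scale (adjusted p = 6.06e-06). For GAS5, SNHG1, SNHG8 and SNHG12 the remaining lines, Karpas422 and OCI-Ly1, did not differ beyond their spread (adjusted p = 0.182 to 0.829). ZFAS1 averaged 89.2 ± 15.8, 53.1 ± 14 and 32.1 ± 8.23 CPM, and GAS5 88.9 ± 13.4, 41.2 ± 11.2 and 32.4 ± 4.09 CPM.

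SNHG6 and SNHG15 ranked the lines differently. SNHG6 was highest in OCI-Ly1, at 78.3 ± 10.1 CPM against 42.2 ± 1.42 in HBL1 and 26.6 ± 3.79 in Karpas422, and each pair of lines differed (adjusted p = 0.000957 or less). SNHG15 was highest in Karpas422, at 37.9 ± 3.57 CPM against 24.5 ± 4.63 in OCI-Ly1 and 7.76 ± 2.15 in HBL1. SNHG3 averaged 50.9 ± 1.63 CPM in HBL1, 39.5 ± 4.79 in Karpas422 and 29.4 ± 4.56 in OCI-Ly1. SNHG7 averaged 12.8 to 16.4 CPM and did not differ between any pair of lines beyond its spread (adjusted p = 0.095 to 0.526).

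**Figure D1:**
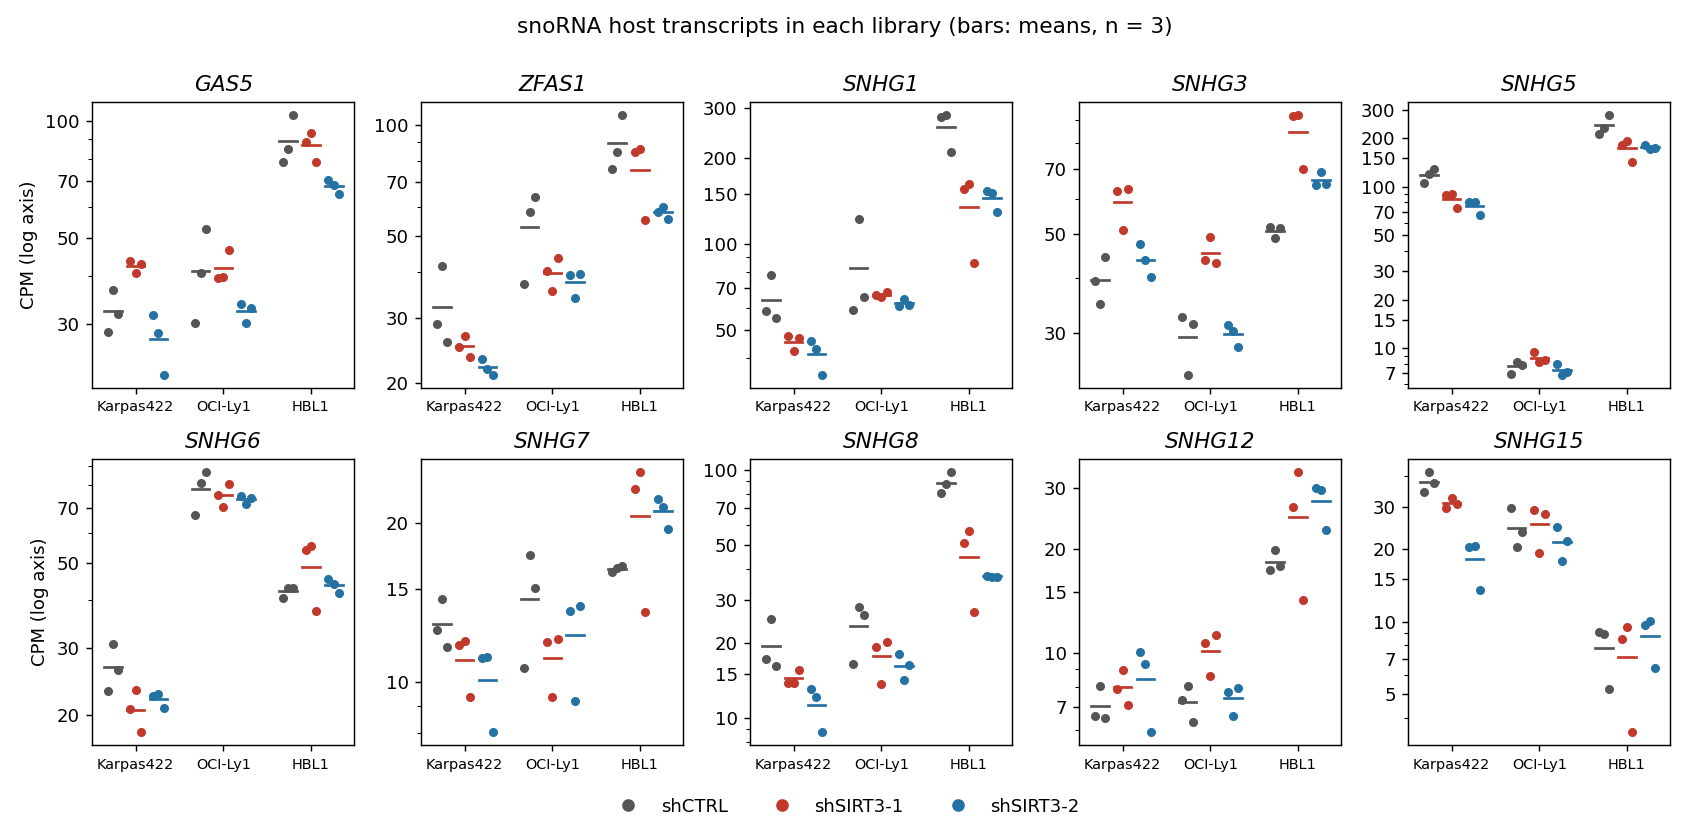
Level of each of the 10 hosts in each of the 27 libraries, in CPM on a log axis, by cell line and shRNA; each point is 1 library and each bar the mean of 3. SNHG5 in OCI-Ly1 lies between 6.87 and 9.43 CPM, below every library of the other lines, and SNHG8 in HBL1 is lower in all 6 knockdown libraries than in the 3 controls.

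With SIRT3 knocked down, SNHG8 was called lower with both shRNAs and SNHG1 with shSIRT3-2, whereas SNHG3 was called higher with shSIRT3-1. SNHG1 had like values with both, -0.56 with shSIRT3-1, short of the fold limit, and -0.59 with shSIRT3-2. Over the 3 lines, with the line as a term, shSIRT3-1 called 1 host lower (SNHG8) and 1 higher (SNHG3), against 9.09% of the 13076 genes tested lower and 3.92% higher. With shSIRT3-2, 2 of 10 were called lower (SNHG1 and SNHG8) and 0 higher, against 10.2% lower and 3.29% higher. Only SNHG8 was called with both shRNAs, where 3.98% of genes were called lower with both and 1.1% higher with both; the comparisons share the shCTRL libraries. At adjusted p under 0.05 without the fold limit, the counts were 5 and 6 of 10. The median log2 fold change of the 10 hosts was -0.12 with shSIRT3-1 and -0.34 with shSIRT3-2, against -0.05 and -0.03 over all genes tested.

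Within the lines the counts differed. In Karpas422, shSIRT3-1 called 0 hosts, where 11.5% of genes were lower and 4.45% higher. Of the 10 hosts, 5 had an adjusted p under 0.05 there but fell short of 1.5-fold, and edgeR called 1. Karpas422 with shSIRT3-2 had 4 of 10 lower (SNHG1, SNHG5, SNHG8 and SNHG15), against 9.44% of genes lower and 5.55% higher. In OCI-Ly1, 1 host was higher with shSIRT3-1 (SNHG3), against 2.45% of genes lower and 2.04% higher. With shSIRT3-2 in OCI-Ly1, 0 hosts were called by limma or edgeR, with 2 at an unadjusted p under 0.05, against 4.26% of genes lower and 2.15% higher. HBL1 had 2 hosts lower (SNHG1 and SNHG8) and 1 higher (SNHG3) with shSIRT3-1, against 18.8% of genes lower and 8.83% higher, and 3 lower (ZFAS1, SNHG1 and SNHG8) with shSIRT3-2, against 16% lower and 7.51% higher.

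**Figure D2:**
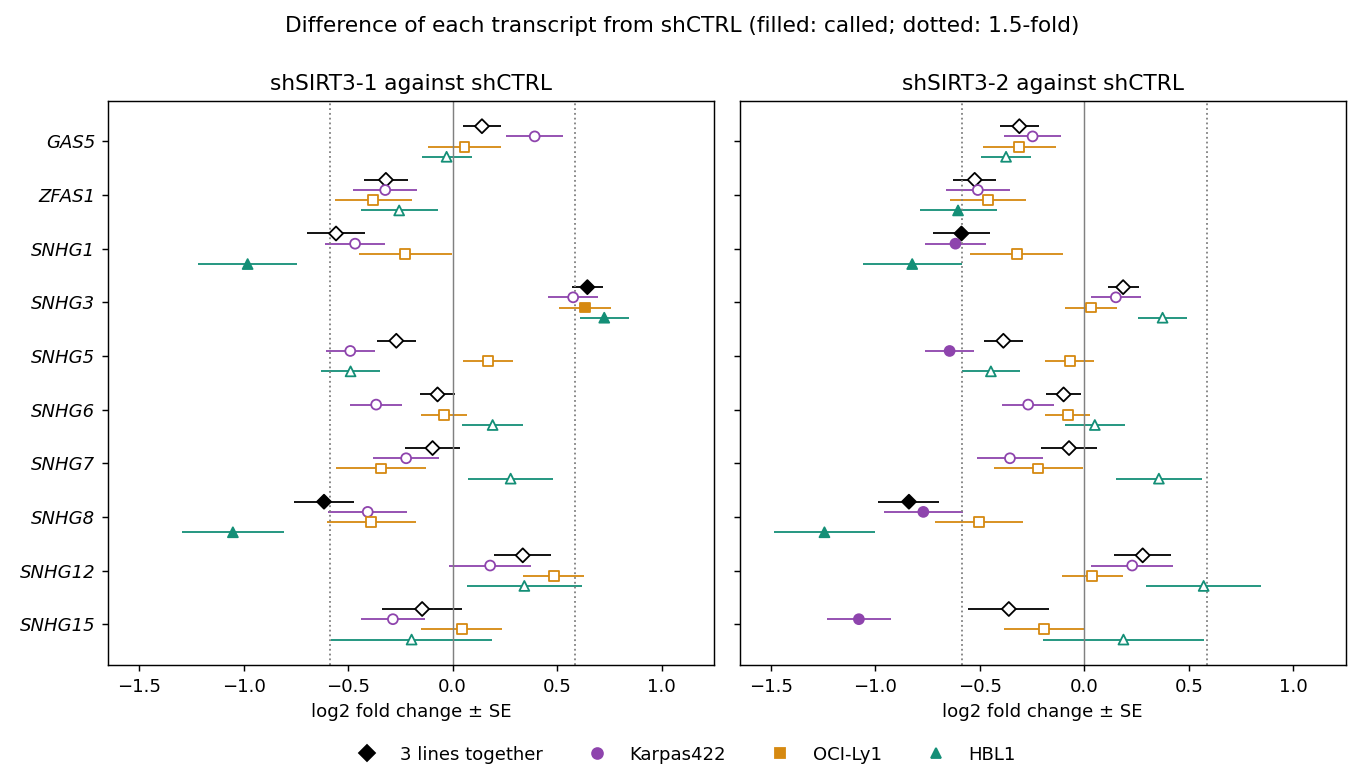
Log2 fold change of each host against shCTRL, with its standard error, for shSIRT3-1 (left) and shSIRT3-2 (right) over the 3 lines and in each line; filled symbols mark calls and dotted lines 1.5-fold. SNHG8 lies below 0 in all 8 estimates, from -0.39 to -1.24, and SNHG3 lies above 0 in all 8, from 0.03 to 0.73.

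The separation of single libraries can be read against the background too. In Karpas422, all 3 shSIRT3-1 libraries lay below all controls for 4 hosts (32.2% of genes) and above them for 2 (19% of genes). With shSIRT3-2 in that line 7 hosts lay below (24.4% of genes) and 0 above (22.6%). In OCI-Ly1, 2 hosts lay above the controls with shSIRT3-1 (15.9% of genes) and 0 below (15%), and with shSIRT3-2 there were 0 in either direction (18% below and 15.4% above). In HBL1 the counts were 3 below (30.8%) and 1 above (20.1%) with shSIRT3-1, and 5 below (34.2%) and 3 above (26.7%) with shSIRT3-2.

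Of the box C/D hosts, SNHG1 carries 8 snoRNAs, those of the SNORD22 and SNORD25 to SNORD31 rows. It was called lower in HBL1 with both shRNAs and in Karpas422 with shSIRT3-2. SNHG1 stood at 278, 284 and 211 CPM in HBL1 shCTRL, at 156, 162 and 85.7 with shSIRT3-1 and at 153, 151 and 129 with shSIRT3-2. In Karpas422, SNHG1 stood at 58.4, 77.9 and 55.0 CPM in the controls, at 47.9, 42.2 and 46.8 and at 46.0, 43.0 and 35.0. In these lines every knockdown library was below every control. The log2 fold changes in HBL1 were -0.98 ± 0.24 (adjusted p = 0.0115) and -0.82 ± 0.24 (adjusted p = 0.0264), and in Karpas422 -0.47 ± 0.14 (adjusted p = 0.0321) and -0.62 ± 0.14 (adjusted p = 0.0107). OCI-Ly1 differed: SNHG1 lay at 58.7, 123 and 65.5 CPM in the controls, at 66.6, 65.1 and 67.9 with shSIRT3-1 and at 61.0, 64.1 and 61.4 with shSIRT3-2. The second control, the library with high stress response genes, was the highest of the 9 there. Its omission turned the OCI-Ly1 fold changes from -0.23 and -0.32 to 0.10 and 0.00, none of them called. Over the 3 lines the fold changes were -0.56 ± 0.14 (adjusted p = 0.0023), short of the fold limit, and -0.59 ± 0.14 (adjusted p = 0.00153). The shSIRT3-2 call was lost on omission of any 1 of 6 libraries, from -0.53 without OCI-Ly1 shCTRL replicate 2 to -0.56 without HBL1 shSIRT3-2 replicate 3, each at an adjusted p of 0.00428 or less. The others were HBL1 shCTRL replicates 1 and 2 (-0.54 each), Karpas422 shCTRL replicate 2 and Karpas422 shSIRT3-2 replicate 3 (-0.55 each). Omission of Karpas422 shCTRL replicate 3 (-0.59) or of OCI-Ly1 shCTRL replicate 1 (-0.64) or 3 (-0.62) made the shSIRT3-1 value a call. In HBL1 without shSIRT3-1 replicate 3, the SNHG1 value was -0.69 and still called. In Karpas422 without shSIRT3-2 replicate 3 it was -0.50 and not called (adjusted p = 0.0282).

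SNHG5 carries SNORD50A and SNORD50B. SNHG5 lay at 106, 121 and 129.8 CPM in Karpas422 shCTRL, at 89.3, 90.3 and 74.2 with shSIRT3-1 and at 80.1, 80.4 and 67.3 with shSIRT3-2. In HBL1, SNHG5 lay at 214, 232 and 280.0 CPM in the controls, at 183, 193 and 143 and at 182, 172 and 174. All knockdown libraries of both lines lay below their controls, and the OCI-Ly1 groups overlapped at 6.97, 8.27 and 7.93 CPM in shCTRL, 9.43, 8.22 and 8.44 with shSIRT3-1 and 8.02, 6.87 and 7.16 with shSIRT3-2. In Karpas422 the log2 fold changes were -0.49 ± 0.12 (adjusted p = 0.0113) and -0.64 ± 0.12 (adjusted p = 0.0035), the latter a call that was lost without Karpas422 shSIRT3-2 replicate 3 (-0.56, adjusted p = 0.00856). HBL1 gave -0.49 ± 0.14 (adjusted p = 0.0236) and -0.45 ± 0.14 (adjusted p = 0.0366), and OCI-Ly1 0.17 ± 0.12 (adjusted p = 0.38) and -0.07 ± 0.12 (adjusted p = 0.728).

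ZFAS1, which carries the SNORD12 family, was called in HBL1 with shSIRT3-2 alone. ZFAS1 stood at 76.2, 84.6 and 107 CPM in HBL1 shCTRL, at 84.4, 86.3 and 55.5 with shSIRT3-1 and at 58.3, 60.2 and 55.7 with shSIRT3-2. The shSIRT3-2 libraries lay below the controls, at -0.60 ± 0.18 (adjusted p = 0.0329), and the shSIRT3-1 libraries overlapped them, at -0.26 ± 0.18 (adjusted p = 0.294), or -0.05 without HBL1 shSIRT3-1 replicate 3. The shSIRT3-2 call held in 7 of 13 alternatives and was lost with median-ratio scaling (-0.49), with both edgeR tests (-0.56) and on omission of any replicate number (-0.71 to -0.44). In Karpas422 the levels were 29.0, 41.4 and 25.9 CPM in shCTRL, 25, 26.9 and 23.6 with shSIRT3-1 and 23.3, 21.8 and 21.1 with shSIRT3-2. In OCI-Ly1, ZFAS1 lay at 37.2, 58.1 and 63.9 CPM, 40.4, 35.5 and 43.7 and 39.2, 34.1 and 39.6, and the groups overlapped. ZFAS1 differed from the controls over the 3 lines by -0.32 ± 0.10 (adjusted p = 0.0175) with shSIRT3-1 and -0.52 ± 0.10 (adjusted p = 0.00035) with shSIRT3-2, both under 1.5-fold. Without OCI-Ly1 shCTRL replicate 1 the second value was -0.59 and a call.

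GAS5, the host of 10 box C/D snoRNAs, was not called against shCTRL with either shRNA. GAS5 lay at 28.7, 36.8 and 31.9 CPM in Karpas422 shCTRL, at 43.6, 40.7 and 43.0 with shSIRT3-1 and at 31.7, 28.5 and 22.3 with shSIRT3-2. The shSIRT3-1 libraries were all above the controls and those of shSIRT3-2 overlapped them, with differences of 0.39 ± 0.14 (adjusted p = 0.0476) and -0.25 ± 0.14 (adjusted p = 0.187) that were not calls. HBL1 held 78.2, 84.5 and 104 CPM in shCTRL, 88.4, 93.0 and 78.6 with shSIRT3-1 and 70.7, 68.6 and 64.9 with shSIRT3-2, the last all below the controls. In OCI-Ly1, GAS5 lay at 30.2, 40.7 and 52.6 CPM, 39.4, 39.7 and 46.5 and 33.8, 30.3 and 33.0, and the groups overlapped. Over all lines GAS5 differed by 0.14 ± 0.09 (adjusted p = 0.236) with shSIRT3-1 and -0.31 ± 0.09 (adjusted p = 0.0097) with shSIRT3-2.

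SNHG6, the host of SNORD87, likewise had no call against shCTRL. SNHG6 lay at 23.0, 30.6 and 26.2 CPM in Karpas422 shCTRL, at 20.7, 23.2 and 18.0 with shSIRT3-1 and at 22.4, 22.6 and 20.9 with shSIRT3-2. In OCI-Ly1, SNHG6 lay at 67.1, 81.0 and 86.7 CPM, 75.7, 70.4 and 81.0 and 75.0, 71.6 and 74.3. The third line, HBL1, held 40.6, 43.1 and 43.0 CPM, 54.1, 55.5 and 37.4 and 45.4, 44.2 and 41.7. Only the Karpas422 shSIRT3-2 libraries stood clear of their controls, below them. SNHG6 differed by -0.07 ± 0.08 (adjusted p = 0.525) with shSIRT3-1 and -0.10 ± 0.08 (adjusted p = 0.371) with shSIRT3-2 over the 3 lines.

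Among the box H/ACA hosts, SNHG8, which carries SNORA24, had the lowest fold change of the 10 with either shRNA in HBL1. SNHG8 stood at 80.4, 87.4 and 97.8 CPM in HBL1 shCTRL, at 50.6, 56.8 and 26.7 with shSIRT3-1 and at 37.5, 37 and 37.1 with shSIRT3-2. In Karpas422, SNHG8 stood at 17.3, 25.1 and 16.1 CPM in the controls, at 13.8, 13.9 and 15.6 and at 13.1, 12.1 and 8.77. Every knockdown library of both lines lay below every control of its line. OCI-Ly1 groups overlapped, at 16.5, 28.1 and 26.0 CPM in shCTRL, 19.3, 13.8 and 20.2 with shSIRT3-1 and 18.0, 14.2 and 16.4 with shSIRT3-2. The log2 fold changes in HBL1 were -1.05 ± 0.24 (adjusted p = 0.0095) and -1.24 ± 0.24 (adjusted p = 0.00502), and the first was -0.72, still a call, without HBL1 shSIRT3-1 replicate 3. Karpas422 gave -0.41 ± 0.19 (adjusted p = 0.124) and -0.77 ± 0.19 (adjusted p = 0.0132), and OCI-Ly1 -0.39 ± 0.21 (adjusted p = 0.267) and -0.50 ± 0.21 (adjusted p = 0.151). SNHG8 fell over the 3 lines by -0.62 ± 0.15 (adjusted p = 0.00171) on the log2 scale with shSIRT3-1 and -0.84 ± 0.15 (adjusted p = 8.96e-05) with shSIRT3-2. The shSIRT3-2 call held in 42 of 42 alternative analyses, with values of -1.03 to -0.64. The shSIRT3-1 value came under the fold limit on omission of Karpas422 shCTRL replicate 2 or OCI-Ly1 shSIRT3-1 replicate 2 (-0.57 each), HBL1 shCTRL replicate 2 (-0.58) or 3 (-0.56), or HBL1 shSIRT3-1 replicate 3 (-0.50), with adjusted p at most 0.00467.

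SNHG3, the host of SNORA73A and SNORA73B, which act in cleavage of the ribosomal RNA precursor, was the one host called higher. SNHG3 lay at 52.0, 49.0 and 51.6 CPM in HBL1 shCTRL, at 92.0, 92.7 and 69.9 with shSIRT3-1 and at 64.5, 68.8 and 64.7 with shSIRT3-2. In Karpas422, SNHG3 lay at 39.2, 34.9 and 44.5 CPM in the controls, at 62.6, 51.2 and 63.2 and at 47.5, 43.8 and 40.0. OCI-Ly1 held 32.7, 24.2 and 31.4 CPM, 43.7, 49.4 and 43.1 and 31.2, 30.4 and 28.0. All 9 shSIRT3-1 libraries exceeded the controls of their line, and with shSIRT3-2 this was so in HBL1 only. SNHG3 rose with shSIRT3-1 by 0.65 ± 0.07 (adjusted p = 4.81e-07) over the 3 lines, and the call held in 41 of 42 alternatives (0.55 to 0.73). By line the shSIRT3-1 values were 0.58 ± 0.12 (adjusted p = 0.00606) in Karpas422, 0.63 ± 0.12 (adjusted p = 0.0221) in OCI-Ly1 and 0.73 ± 0.12 (adjusted p = 0.00183) in HBL1. The OCI-Ly1 call was lost without shCTRL replicate 2 (0.50, adjusted p = 0.0436). With shSIRT3-2 the difference was 0.19 ± 0.07 (adjusted p = 0.0499) over the 3 lines and reached 0.37 ± 0.12 (adjusted p = 0.0353) in HBL1, under 1.5-fold in both.

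SNHG15, the host of SNORA9, was called lower in Karpas422 with shSIRT3-2 alone. SNHG15 lay at 34.5, 41.6 and 37.5 CPM in Karpas422 shCTRL, at 29.7, 32.5 and 30.7 with shSIRT3-1 and at 20.3, 20.6 and 13.5 with shSIRT3-2. All 6 knockdown libraries lay below the controls, at -0.29 ± 0.15 (adjusted p = 0.18) and -1.08 ± 0.15 (adjusted p = 0.00119). The call held in 13 of 13 alternatives, at -0.88 without Karpas422 shSIRT3-2 replicate 3. In OCI-Ly1, SNHG15 lay at 29.6, 20.5 and 23.5 CPM, 29.0, 19.3 and 28.0 and 24.7, 17.8 and 21.6, and in HBL1 at 9.08, 8.92 and 5.28 CPM, 8.50, 9.49 and 3.48 and 9.71, 10.1 and 6.46. The groups overlapped in both lines, and the values over all 3 were -0.15 ± 0.19 (adjusted p = 0.578) and -0.36 ± 0.19 (adjusted p = 0.142).

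SNHG7, another box H/ACA host, was not called against shCTRL in any line. SNHG7 lay at 12.5, 14.4 and 11.7 CPM in Karpas422 shCTRL, at 11.7, 11.9 and 9.37 with shSIRT3-1 and at 11.1, 11.1 and 8.04 with shSIRT3-2. In OCI-Ly1, SNHG7 lay at 10.6, 17.4 and 15 CPM, 11.9, 9.39 and 12.1 and 13.6, 9.20 and 13.9. HBL1 libraries held 16.1, 16.4 and 16.5 CPM, 23.2, 24.9 and 13.6 and 22.2, 21.4 and 19.5. The Karpas422 shSIRT3-2 libraries lay below and the HBL1 shSIRT3-2 libraries above their controls, with values of -0.36 ± 0.16 (adjusted p = 0.109) and 0.36 ± 0.20 (adjusted p = 0.206).

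SNHG12, which carries SNORA16A, SNORA44, SNORA61 and the box C/D SNORD99, also had no call against shCTRL. SNHG12 lay at 17.3, 19.9 and 17.8 CPM in HBL1 shCTRL, at 26.5, 33.4 and 14.3 with shSIRT3-1 and at 30.1, 29.7 and 22.7 with shSIRT3-2. In OCI-Ly1, SNHG12 lay at 7.35, 8.05 and 6.32 CPM, 10.7, 8.61 and 11.3 and 7.75, 6.57 and 7.94. Karpas422 held 6.58, 8.06 and 6.48 CPM, 7.91, 8.97 and 7.08 and 10.1, 9.30 and 5.91, with overlap. The OCI-Ly1 shSIRT3-1 and HBL1 shSIRT3-2 libraries lay above their controls. SNHG12 differed by 0.34 ± 0.14 (adjusted p = 0.0555) with shSIRT3-1 and 0.28 ± 0.14 (adjusted p = 0.11) with shSIRT3-2 over the 3 lines. Without HBL1 shSIRT3-1 replicate 3 the shSIRT3-1 value in HBL1 went from 0.34 to 0.69 and became a call (adjusted p = 0.00601).

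The shRNAs were next compared with each other over the 3 lines. In that fit 0 of the 10 hosts were called by limma or edgeR, where 11.3% of genes were, and 2 of 10 had an adjusted p under 0.05 by limma. SNHG3 was lower with shSIRT3-2 than with shSIRT3-1 by 0.46 on the log2 scale (-0.46 ± 0.07, adjusted p = 4.6e-05). GAS5 was lower by a like amount (-0.45 ± 0.09, adjusted p = 0.000585). Both were under 1.5-fold over the 3 lines. Within the lines 3 differences were calls. In Karpas422, 2 of 10 hosts were lower with shSIRT3-2 than with shSIRT3-1, GAS5 (-0.64 ± 0.14, adjusted p = 0.011) and SNHG15 (-0.79 ± 0.15, adjusted p = 0.00825), where 11.5% of genes were called in either direction. In OCI-Ly1, 1 of 10 was lower, SNHG3 (-0.60 ± 0.12, adjusted p = 0.0203), against 4.68% of genes. HBL1 had 0 calls by limma among the hosts, against 27.9% of genes, although 2 had an adjusted p under 0.05 and fell short of 1.5-fold. These within-line differences were not tested with edgeR. Over the 3 lines SIRT3 itself was higher with shSIRT3-2 by 1.08 ± 0.17 (adjusted p = 4.57e-05).

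Whether a host responded differently in the 3 lines was tested with the 4 interaction terms of line and shRNA. SNHG5 was the only host past the threshold (F = 5.57, adjusted p = 0.0133), against 41.8% of genes. With shSIRT3-1 its fold change in HBL1 was 0.66 lower than in OCI-Ly1 (-0.66 ± 0.17, adjusted p = 0.0104), and that in Karpas422 was lower by the same amount (-0.66 ± 0.17, adjusted p = 0.0345). With shSIRT3-2 the differences were -0.38 ± 0.17 (adjusted p = 0.153) and -0.57 ± 0.17 (adjusted p = 0.0501). The adjusted p of SNHG5 ranged from 0.0056 to 0.213 over the alternatives, and was above 0.05 whenever 1 replicate number was left out of every group. SNHG15 had an adjusted p of 0.0651 in the F test, although its shSIRT3-2 fold change in HBL1 exceeded that in Karpas422 by 1.27 ± 0.40 (adjusted p = 0.0369). Without HBL1 shSIRT3-1 replicate 3, SNHG5, SNHG6, SNHG7 and SNHG15 passed the F test (adjusted p = 0.0107, 0.0121, 0.0348 and 0.025). Without OCI-Ly1 shCTRL replicate 2, SNHG1 (adjusted p = 0.027) passed it with SNHG5.

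Of the genes that start near a host or overlap it, 6 were compared with it, since SNHG1 and SLC3A2 begin 51 bases apart. SLC3A2 stood at 172, 178 and 153 CPM in HBL1 shCTRL, at 52.6, 49.95 and 54.1 with shSIRT3-1 and at 79.4, 69.4 and 99.5 with shSIRT3-2. In Karpas422, SLC3A2 stood at 189, 222 and 173 CPM, 68.9, 66.4 and 63.3 and 89.3, 89.8 and 109. In both lines it fell with each shRNA and without overlap, as SNHG1 did. The log2 fold changes of SLC3A2 in HBL1 were -1.68 ± 0.13 (adjusted p = 8.34e-05) and -1.03 ± 0.13 (adjusted p = 0.000783). OCI-Ly1 held 56.0, 207 and 42.6 CPM in the controls, 53.7, 54.4 and 48.3 with shSIRT3-1 and 47.6, 50.6 and 49.2 with shSIRT3-2. Its second control was the highest of the 9 libraries, as for SNHG1. Over the 3 lines SLC3A2 differed by -1.28 ± 0.20 (adjusted p = 1.86e-05) and -0.91 ± 0.20 (adjusted p = 0.000765), and the second call was lost without replicate 2 of every group (-0.58, adjusted p = 0.0585). Across the 27 libraries, centred on the mean of each line, SNHG1 and SLC3A2 had a Pearson r of 0.79 and a Spearman rho of 0.47, a description over libraries that share their groups and, for 1 library, a high value of both.

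**Figure D3:**
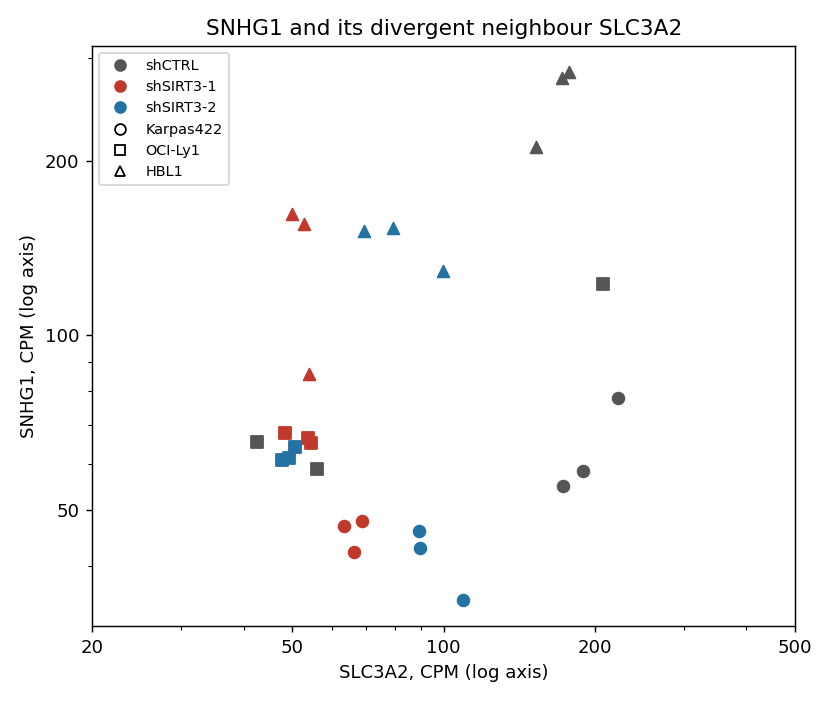
SNHG1 against SLC3A2 in the 27 libraries, both in CPM on log axes, with 1 point per library by line and shRNA. The OCI-Ly1 control at 123 CPM of SNHG1 and 207 CPM of SLC3A2 lies apart from the other 8 OCI-Ly1 libraries, which hold 42.6 to 56.0 CPM of SLC3A2.

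Of the other neighbours, 0 were called over the 3 lines, and 2 were called within a line. RCC1 showed -0.17 ± 0.16 (adjusted p = 0.42) with shSIRT3-1, where SNHG3 rose, and 0.09 ± 0.16 (adjusted p = 0.706) with shSIRT3-2. ZNFX1, opposite ZFAS1, was higher at 0.39 ± 0.11 (adjusted p = 0.00948) and 0.52 ± 0.11 (adjusted p = 0.000899), under 1.5-fold over the 3 lines, and was called higher in Karpas422 with each shRNA, at 0.70 ± 0.16 (adjusted p = 0.0101) and 0.85 ± 0.16 (adjusted p = 0.00454). ZBTB37, opposite GAS5, stood at -0.06 ± 0.13 (adjusted p = 0.749) and -0.47 ± 0.13 (adjusted p = 0.00685), and was called lower in HBL1 with shSIRT3-2, at -0.63 ± 0.21 (adjusted p = 0.0428). TRNAU1AP, which overlaps SNHG12, differed by 0.09 ± 0.06 (adjusted p = 0.215) and 0.12 ± 0.06 (adjusted p = 0.102). PRSS12, which overlaps SNHG8 but starts 74300 bases from it, had too few reads to be tested. The differences between neighbour and host were not tested.

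Rows for snoRNAs that lie within the hosts in the RefSeq annotation were used for 9 of the hosts, 32 rows in all. The rows of SNHG7 summed to 0 reads in at least 1 library and were left out. The reads of the 32 rows were set against the reads of the host itself, in a comparison that was chosen after the values were seen and carries no test. The libraries were made for long RNA, so a read in such a row can come from a snoRNA or from unspliced host intron, and the 2 cannot be told apart. Summed over a host, a library held 12 to 4201 of these reads. The ratio of snoRNA reads to host reads was higher than in shCTRL for 9 of 9 hosts with each shRNA, as the mean log2 change over the lines. In HBL1, SNHG1 had 5.02 ± 0.471 snoRNA reads per 100 host reads in the controls (SD, n = 3), 17.6 ± 2.69 with shSIRT3-1 and 19.1 ± 0.363 with shSIRT3-2. SNHG8 had 0.724 ± 0.254, 3.31 ± 0.551 and 2.86 ± 0.403 in the same order. SNHG3 in HBL1 had 7.48 ± 0.917, 7.72 ± 0.238 and 7.22 ± 0.506, and so differed there by less than its spread, but in Karpas422 it went from 2.02 ± 0.221 to 4.20 ± 1.27 and 3.90 ± 0.217. The mean log2 change in the ratio ran from 0.56 (SNHG3) to 1.64 (ZFAS1) with shSIRT3-1 and from 0.48 (SNHG12) to 1.61 (ZFAS1) with shSIRT3-2. In OCI-Ly1 the changes were smaller, 0.49 and 0.72 for SNHG1 and 0.33 and 0.27 for SNHG8, against 1.80 and 1.94 and against 2.25 and 2.04 in HBL1. These OCI-Ly1 values rested largely on shCTRL replicate 2, which held 7.46 SNHG1 snoRNA reads per 100 host reads against 20.1 and 18.4 in the other controls. Without it they were 0.03 and 0.27 for SNHG1 and 0.01 and -0.06 for SNHG8. SNHG12 then had 0.09 and -0.17, and SNHG15 0.08 and 0.01. Other hosts kept higher values without it: ZFAS1 0.87 and 0.57, SNHG3 0.51 and 0.66, GAS5 0.39 and 0.37, SNHG5 0.40 and 0.27, and SNHG6 0.49 and 0.14. Without HBL1 shSIRT3-1 replicate 3 the HBL1 changes with shSIRT3-1 were 1.94 for SNHG1 and 2.12 for SNHG8.

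**Figure D4:**
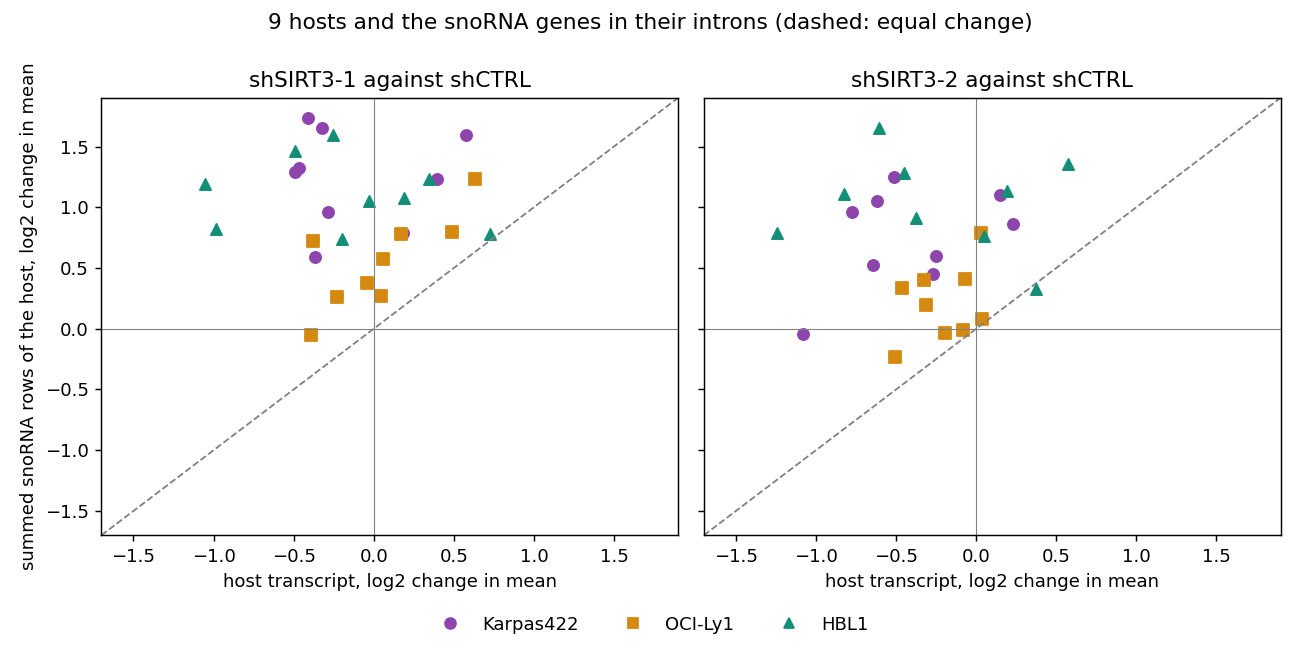
Log2 change against shCTRL of the host (horizontal) and of the summed snoRNA rows in its introns (vertical) for 9 hosts, by line and shRNA; each point is 1 host in 1 line, and the dashed line marks equal change. For SNHG1 in HBL1 the snoRNA rows lie at 0.82 and 1.11 and the host at -0.98 and -0.82.

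The snoRNA rows of the hosts were also tested singly, and other snoRNA rows beside them. A row that reached the filter only through the knockdown libraries had to be higher there, so counts are given for rows that reached 1 CPM in at least 3 of the 9 shCTRL libraries, a filter chosen after the values were seen. Over the 3 lines 17 of the 32 rows did so, and 14 were called higher with shSIRT3-1 and 8 with shSIRT3-2, with 0 lower. Of 17 other snoRNA rows with such control levels, 10 and 8 were called higher and 0 lower. The medians were 0.86 and 0.58 for the rows of the hosts and 0.72 and 0.56 for the others. These are low values, and the calls depended on the pseudocount. With a pseudocount of 1 in place of 0.1, 4 and 0 of the 17 host rows and 6 and 3 of the other rows exceeded 1.5-fold, although 16 and 15 of the host rows had an adjusted p under 0.05. On recovered reads with edgeR, 16 and 11 of the 17 were called higher.

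SNORD30 in SNHG1 had 1.05 ± 0.19 (adjusted p = 0.000143) with shSIRT3-1 and 1.13 ± 0.19 (adjusted p = 7.57e-05) with shSIRT3-2, from 0.162 to 1.26 CPM in the controls. With a pseudocount of 1 its values were 0.52 and 0.58, short of the fold limit. SNORD47 in GAS5 had 0.83 ± 0.12 (adjusted p = 8.21e-06) and 0.48 ± 0.12 (adjusted p = 0.00245), from 1.27 to 3.33 CPM in the controls, and 0.63 and 0.37 with a pseudocount of 1. SNORA73A and SNORA73B, the pair in SNHG3, are near-identical copies, as is the SNORD12 family, and the division of reads between copies is uncertain. By line, with the filter on the controls of that line, 4 and 1 of 4 rows were called higher in Karpas422 and 9 and 9 of 12 in HBL1. In OCI-Ly1 the counts were 0 and 0 of 6 by limma and by edgeR, with 0 and 0 at an adjusted p under 0.05. Over all 32 rows, tested or not, the median log2 change was 0.24 to 1.05 by line and shRNA, against 0.18 to 0.72 for 179 other snoRNA rows with reads in every library.

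Genes that make snoRNA particles, or that share decay or a TOP tract with the hosts, were read as lists over the 3 lines. Of the 4 core proteins of box C/D particles, 0 were called with either shRNA. FBL, the methyltransferase, stood at -0.10 ± 0.13 (adjusted p = 0.558) and 0.08 ± 0.13 (adjusted p = 0.675), and NOP56 at 0.31 ± 0.13 (adjusted p = 0.0561) and 0.46 ± 0.13 (adjusted p = 0.00565). NOP58 had -0.11 ± 0.12 (adjusted p = 0.52) and -0.03 ± 0.12 (adjusted p = 0.869), and SNU13 -0.32 ± 0.09 (adjusted p = 0.00586) and 0.17 ± 0.09 (adjusted p = 0.134). Of the 4 core proteins of box H/ACA particles, again 0 were called. DKC1, the pseudouridine synthase, stood at -0.17 ± 0.13 (adjusted p = 0.314) and -0.11 ± 0.13 (adjusted p = 0.532), and GAR1 at -0.40 ± 0.13 (adjusted p = 0.0175) and -0.01 ± 0.13 (adjusted p = 0.975). NHP2 and NOP10 lay between 0.20 and 0.34 with either shRNA. All 8 assembly factors tested were without a call, with medians of 0.04 and 0.03.

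Of 16 NMD factors, 1 was called lower with shSIRT3-1 and 0 with shSIRT3-2. The lower one, named after its values were seen, was UPF3B, an adaptor of the exon junction complex, at -0.67 ± 0.10 (adjusted p = 1.64e-05) and -0.20 ± 0.10 (adjusted p = 0.112). The median of the 16 was 0.08 and 0.11. TOP mRNAs that encode no ribosomal protein gave 0 calls of 15, with medians of -0.08 and -0.09. Of 77 ribosomal protein genes tested, 2 were higher with shSIRT3-1 (RPS26 and RPS28) and 0 called with shSIRT3-2, with medians of 0.17 and -0.02.

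Other host genes were read in the same way. Among 10 further noncoding hosts that were tested, 2 were higher and 0 lower with shSIRT3-1, and 1 was lower and 0 higher with shSIRT3-2. The 3, named after their values were seen, were SNHG4 at 0.72 ± 0.16 (adjusted p = 0.00101) and 0.52 ± 0.16 (adjusted p = 0.0125), SNHG9 at 0.62 ± 0.13 (adjusted p = 0.000724) and -0.03 ± 0.13 (adjusted p = 0.876), and EPB41L4A-AS1 at -0.51 ± 0.14 (adjusted p = 0.00403) and -0.73 ± 0.14 (adjusted p = 0.000168). The median of these 10 was 0.45 and 0.15. Of 23 protein-coding hosts, 1 was higher with each shRNA, HSPA8, the constitutive HSP70 chaperone, at 0.71 ± 0.21 (adjusted p = 0.0108) and 1.12 ± 0.21 (adjusted p = 0.000233). Both of its calls were lost without replicate 2 of every group (0.40 and 0.76, adjusted p = 0.285 and 0.0526). Over the 3 lines 8 of 8 integrated stress response genes fell with both shRNAs, with medians of -2.24 and -2.42. They summed to 1538 to 1603 CPM in Karpas422 controls and 210.4 to 508 CPM with SIRT3 knocked down, and to 1355 to 1469 and 267 to 354 CPM in HBL1, the lines in which SNHG1 and SNHG8 were called. In OCI-Ly1 they summed to 256 to 283 CPM with shSIRT3-1 and 216 to 246 CPM with shSIRT3-2 against 301, 333 and 1294 CPM in the controls, and 0 and 1 of the 7 genes tested there were called lower. Their part in the results of the hosts was not tested. Among them CHAC1, which degrades glutathione, was at -3.74 ± 0.49 (adjusted p = 2.82e-06) and -4.25 ± 0.49 (adjusted p = 7.25e-07).

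**Figure D5:**
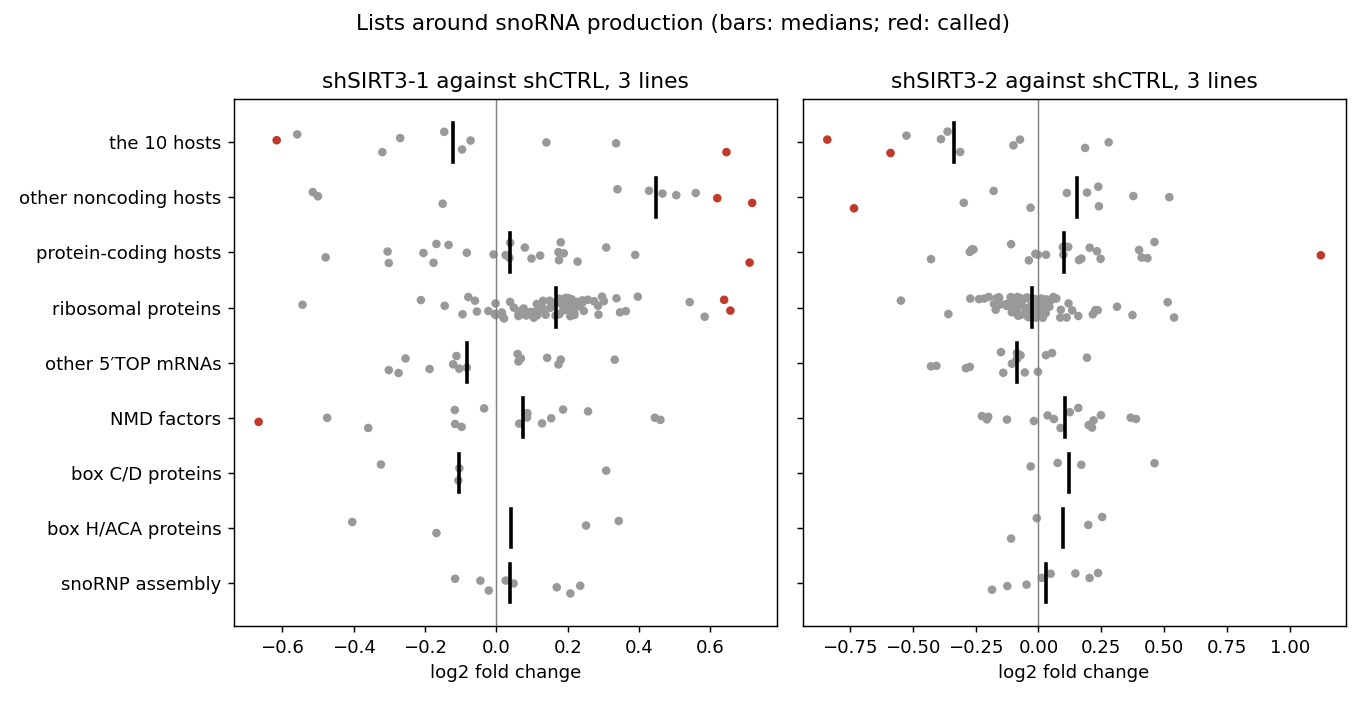
Log2 fold change against shCTRL over the 3 lines for the genes of 9 lists, with 1 point per gene, the median as a bar and calls in red, for shSIRT3-1 (left) and shSIRT3-2 (right; the horizontal axes differ). The 10 hosts have medians of -0.12 and -0.34, and the 10 other noncoding hosts medians of 0.45 and 0.15.

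The hosts were last compared library by library. With log2 levels centred on the mean of each line, 8 of the 10 hosts had a Pearson r of 0.56 to 0.72 with the mean of the other hosts over 27 libraries. SNHG12 (0.28) and SNHG3 (-0.13) stood apart. Outside the hosts and the snoRNA rows, the 5 genes nearest to their mean were HHEX (r = 0.89), a homeobox factor of B-cell development, SREBF1 (0.86), a factor of lipid synthesis, MYC (0.85), EEF2 (0.84), a translation elongation factor with a TOP tract, and ZNF581 (0.83). These values describe libraries that share groups, depth and scaling.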

How the data were processed

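RNA of 27 libraries (3 DLBCL lines, 3 shRNA groups, 3 replicates) was analysed. According to the methods, the authors made libraries from total RNA with a TruSeq kit and random primers, sequenced paired ends, aligned with STAR to hg19 and counted RefSeq genes with Rsubread. The deposited values are named FPKM, yet in every library they are whole multiples (tolerance 0.01) of a step that is the same for short and long genes, so they were treated as CPM. Listed genes make up 40.3% to 45.6% of the total divided by. The lowest share was that of HBL1 shSIRT3-1 replicate 3. The HBL1 shSIRT3-1 libraries had 42.6%, 43.1% and 40.3%, against 45.1%, 45.1% and 43.9% in the HBL1 controls. A lower share lowers the CPM of listed genes, and its part in the results was not tested. The tests had been laid out for values named FPKM and were kept.

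log2(CPM + 0.1) was fitted with limma 3.58.1 (R 4.3.3, variance trend) for genes at 1 CPM or more in at least 3 libraries: 13076 over 3 lines (line and shRNA as terms), 11235 in Karpas422, 11205 in OCI-Ly1, 11862 in HBL1 and 12607 in shCTRL. Adjusted p-values are Benjamini-Hochberg over all genes tested. Fold changes are on the log2(CPM + 0.1) scale. The 10 hosts passed every filter. Recovered reads were tested with edgeR 4.0.16 as an alternative. The fits were tested on simulated data. Median depth was 45669254 reads on genes.

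All 10 hosts are named. From other lists, genes are named if they are core snoRNA proteins or neighbours, or are among the up to 3 called with both shRNAs with the largest mean absolute change. Other names were chosen after their values were seen. The hosts, the lists and the tests were chosen with earlier results of these data known. Values of single libraries were described as they are and no set test was made.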

Additional observations from a re-analysis of the deposited data

Results flagged for a closer look

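SNHG5 was marked because its response to the SIRT3 shRNAs differed between the cell lines in a test of the difference itself, the F test on the 4 interaction terms (adjusted p = 0.0133, limma). The same test was passed by 41.8% of genes. SNHG5 no longer passed it, at an adjusted p of 0.0523 to 0.213, when 1 replicate number was left out of every group. Its log2 fold changes with shSIRT3-1 and shSIRT3-2 were -0.49 and -0.64 in Karpas422, -0.49 and -0.45 in HBL1, and 0.17 and -0.07 in OCI-Ly1, where its control level was 7.72 ± 0.671 CPM (SD, n = 3) against 119 ± 12.1 in Karpas422 and 242 ± 34.2 in HBL1.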

How the results depend on the processing

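No called host reversed its direction in any alternative. A pseudocount of 1 left 1 of the 2 calls with shSIRT3-2 over the 3 lines and raised the hosts with a line-dependent response from 1 to 2. Quantile normalization gave 1 call with shSIRT3-1 over the 3 lines, 1 with shSIRT3-1 in Karpas422 and 0 with both shRNAs. Median-ratio scaling gave 1 call with shSIRT3-2 over the 3 lines and 1 with shSIRT3-1 in Karpas422. Both edgeR tests gave 1 call with shSIRT3-1 in Karpas422 (SNHG3), and the likelihood ratio test 2 line-dependent hosts. Both edgeR tests and median-ratio scaling lost ZFAS1 with shSIRT3-2 in HBL1 (-0.56 and -0.49). Without Karpas422, 1 host was called with shSIRT3-2; without OCI-Ly1, 2 with both shRNAs; without HBL1, 1 with shSIRT3-1 and 0 with both. A pseudocount of 0.01, no variance trend and no filter changed 0 calls. The cause was not tested. Leaving out single replicates gave 0 to 3 calls with shSIRT3-1 and 1 to 3 with shSIRT3-2 over the 3 lines, 0 to 2 with both, 0 to 2 and 1 to 4 in Karpas422, 0 to 0 and 0 to 0 in OCI-Ly1, 0 to 4 and 0 to 3 in HBL1, 0 to 4 line-dependent hosts, 0 to 0 between the shRNAs and 9 to 9 between the control lines; these fits have fewer libraries.

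Same-numbered libraries correlated over 0.1 in 26 of 27 pairs (Karpas422 8 of 9, lowest 0.0144). Of 54 comparisons, 47 were best with their own number, 18 of 18 in OCI-Ly1, 15 of 18 in Karpas422 and 14 of 18 in HBL1. The number thus pairs the libraries in OCI-Ly1, and only in part in the other lines. With the replicate block, 0 calls of hosts were lost or gained, and 2 hosts in place of 1 had a line-dependent response, SNHG15 added at an adjusted p of 0.0308. Depth limits the snoRNA rows most, with as few as 12 reads per host and library; intervals from counts would cover counting error only, and none were drawn.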
